A study of Mus musculus with 6 samples.

Results

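The genes described here build and run the DNA replication fork, from the marking of origins to the repackaging of the copied DNA. They were taken by name from the deposited table as the 51 members of a fixed list, among 21959 genes in all, and each member matched 1 row. The list holds 6 subunits of the MCM helicase, 6 of the origin recognition complex, 3 loading factors, 9 genes of origin firing, 9 polymerase and primase subunits, 8 genes of the clamp, its loader and Okazaki fragment joining, 3 subunits of the single-strand binding protein RPA, 3 histone chaperone genes and 4 fork protection genes. All 51 had enough counts to be tested.

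Transcripts were counted by poly(A) RNA-seq in mouse cells labelled HL-1, a line derived from atrial cardiomyocytes, of genotype wild type. In 3 libraries the cells were deprived of oxygen and glucose and then reoxygenated (OGD/R), and received 50 µg/mL phillyrin, a lignan glucoside, as a pretreatment of 8 h and a co-treatment of 16 h. In 3 libraries they went through OGD/R alone. In all 6 the cells were kept hypoxic without glucose for 4 h and then reoxygenated for 24 h. The culture medium of all 6 held 0.1 mM norepinephrine and 10% serum. The question is how transcript levels after this injury change with phillyrin, and uninjured or vehicle-treated cells were not analysed here. All libraries carry 1 batch label. The labels do not state whether libraries of a group are from different cultures, and p-values here reflect the variation among these libraries alone, which may be technical.

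The libraries held 14761317 to 22123648 counts with phillyrin and 18179405 to 20433200 with OGD/R alone. Of 12 atrial cardiomyocyte markers 10 stayed below 0.5 CPM (counts scaled to the size of the library) in every library, and Myh6, Actn2, Sln and Mybpc3 had no count, which goes against the label HL-1, and the cells are given no other name here. Summed over 12 atrial markers the level was 147 to 165 CPM with phillyrin and 116 to 120.2 CPM with OGD/R alone, nearly all of it Tnnt2, which was itself higher (153 ± 9.34 CPM with phillyrin and 116 ± 1.79 CPM with OGD/R alone; SD, n = 3 each). Sums over other marker lists also differed. The summed level of 8 fibroblast markers was 1797 to 1950 CPM with phillyrin and 2281 to 2322 CPM with OGD/R alone, and that of 5 smooth muscle markers was 613 to 666 CPM with phillyrin and 442 to 466 CPM with OGD/R alone. Most of the smooth muscle sum was Acta2, and Myh11, Tagln and Cnn1 stayed under 1 CPM in every library. For 12 skeletal myoblast markers the sums were 516 to 548 CPM with phillyrin and 580 to 595 CPM with OGD/R alone, and within the list Myod1 rose whereas Myf5, Chrna1 and Cdh15 fell (log2 fold changes 0.23, -0.29, -0.17 and -0.36). Mymk also fell (-1.55), at low means of 0.445 CPM with phillyrin and 1.38 CPM with OGD/R alone. In the fibroblast list most of the sum was Col3a1 and Col1a2, which fell (log2 fold changes -0.34 and -0.27), as did Pdgfra (-0.74). Col1a1 and Dcn did not pass the test, Thy1 stayed under 1 CPM in every library, and Lum and Tcf21 had no count. Endothelial markers summed to at most 1.35 CPM in any library, with Kdr and Emcn at 0 counts, and macrophage markers to at most 21.6 CPM, with Adgre1 at 0. The part of these differences in the results below was not tested.

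A replication origin is licensed when the origin recognition complex, with CDC6 and CDT1, loads the ring-shaped MCM helicase onto DNA before S phase. Geminin then blocks CDT1, so that no origin is licensed again in the same cycle. At firing the kinase CDC7, bound to its activator DBF4, phosphorylates the loaded helicase, CDC45 and the GINS complex join it, and polymerases copy both strands behind it. Many of these genes are known targets of the E2F transcription factors, which act at the passage from G1 into S phase, and adult cardiomyocytes transcribe most of them only weakly because they have largely left the cell cycle.

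E2F factors bind variants of the site TTTCCCGC, and the promoters of 5 of the 6 MCM genes are shown because these genes form the group in which every member fell. Each window runs from 250 bases before to 50 bases after an annotated start in RefSeq on build GRCm38.p6, a different build from the deposited table, and is written 5′ to 3′ on the strand of the gene. Capitals mark any of the 4 sites TTTCCCGC, TTTGGCGC, TTTCGCGC and TTTGCCGC on either strand.
Mcm6 (chr1:128359656-128359955, minus strand): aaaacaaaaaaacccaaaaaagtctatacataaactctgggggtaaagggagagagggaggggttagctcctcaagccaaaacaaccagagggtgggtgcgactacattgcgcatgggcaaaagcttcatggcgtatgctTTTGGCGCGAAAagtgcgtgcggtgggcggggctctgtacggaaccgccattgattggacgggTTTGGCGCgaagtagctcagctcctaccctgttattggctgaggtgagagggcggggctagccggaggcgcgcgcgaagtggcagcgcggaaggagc
Mcm5 (chr8:75109259-75109558, plus strand): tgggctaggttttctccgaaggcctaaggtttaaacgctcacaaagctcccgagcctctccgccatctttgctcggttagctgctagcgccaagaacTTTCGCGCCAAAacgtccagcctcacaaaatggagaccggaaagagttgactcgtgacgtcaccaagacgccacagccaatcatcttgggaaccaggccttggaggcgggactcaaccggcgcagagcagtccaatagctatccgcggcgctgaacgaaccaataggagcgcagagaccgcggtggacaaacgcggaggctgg
Mcm3 (chr1:20820263-20820562, minus strand): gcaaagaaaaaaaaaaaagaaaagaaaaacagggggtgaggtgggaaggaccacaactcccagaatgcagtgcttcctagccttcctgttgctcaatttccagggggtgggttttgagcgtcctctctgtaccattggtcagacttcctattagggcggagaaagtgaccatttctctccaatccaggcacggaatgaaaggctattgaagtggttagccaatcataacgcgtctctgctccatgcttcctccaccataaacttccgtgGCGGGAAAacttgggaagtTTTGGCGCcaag
Mcm7 (chr5:138171834-138172133, minus strand): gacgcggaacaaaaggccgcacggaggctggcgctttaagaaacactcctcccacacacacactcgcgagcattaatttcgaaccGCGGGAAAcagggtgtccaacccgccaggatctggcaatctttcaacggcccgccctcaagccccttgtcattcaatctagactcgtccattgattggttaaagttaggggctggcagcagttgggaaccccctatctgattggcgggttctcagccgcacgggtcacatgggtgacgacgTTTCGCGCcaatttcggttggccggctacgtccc
Mcm2 (chr6:88898731-88899030, minus strand): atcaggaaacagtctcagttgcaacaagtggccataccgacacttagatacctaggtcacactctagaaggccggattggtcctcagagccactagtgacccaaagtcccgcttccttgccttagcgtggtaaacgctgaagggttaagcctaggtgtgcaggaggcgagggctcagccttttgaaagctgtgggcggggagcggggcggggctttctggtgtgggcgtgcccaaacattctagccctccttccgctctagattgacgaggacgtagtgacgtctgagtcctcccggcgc
Dbf4 (chr5:8422667-8422966, minus strand): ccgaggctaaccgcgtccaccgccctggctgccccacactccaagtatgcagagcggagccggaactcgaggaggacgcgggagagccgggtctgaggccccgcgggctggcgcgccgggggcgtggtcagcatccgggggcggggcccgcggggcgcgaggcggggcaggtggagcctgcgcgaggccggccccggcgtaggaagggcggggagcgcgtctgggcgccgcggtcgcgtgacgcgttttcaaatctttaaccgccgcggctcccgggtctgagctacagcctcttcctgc
Mcm6 had 3 matches in its window, and Mcm5, Mcm3 and Mcm7 had 2 each. In Mcm5 and in the upstream pair of Mcm6, 2 matches on opposite strands overlapped by 4 bases, which gives the single runs of 12 capitals. Mcm2 had no match to these letters, and neither had Dbf4, shown as the member with the largest increase. A second Mcm7 window, from another annotated start, had none either.

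Promoter windows were found for 42 of the 51 members, 51 windows in all, and not for Mcm4, Prim2, Rfc2, Gins1, Gins2, Gins4, Pole, Gmnn and Tipin. An E2F site of these 4 forms was present for 16 of the 42 members (38.1%), against 4.81% of the 9268 tested genes with a window and 2.60% of all 27025 genes of the RefSeq promoter table. Counted by window the shares were 31.4%, 3.97% and 2.26%. Among the members that fell 9 of 20 with a window held a match, and among those that did not pass the test 7 of 20 did, namely Cdt1, Orc1, Orc3, Pold3, Pole2, Rfc3 and Gins3. For comparison, 2 letter patterns common in promoters of mitotic genes were searched in the same windows. The cell cycle homology region element TTTGAA was present for 8 of the 42 members (19.0%), against 18 of 24 genes of a mitosis list (75.0%) and 14.3% of tested genes. The box CCAAT, bound by the factor NF-Y, was present for 25 of the 42 members (59.5%), 19 of the 24 mitosis genes (79.2%) and 43.6% of tested genes. Each pattern was searched on both strands and counted whether or not it overlapped another. A match is a description of letters and not a measured binding site.

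**Figure D1:**
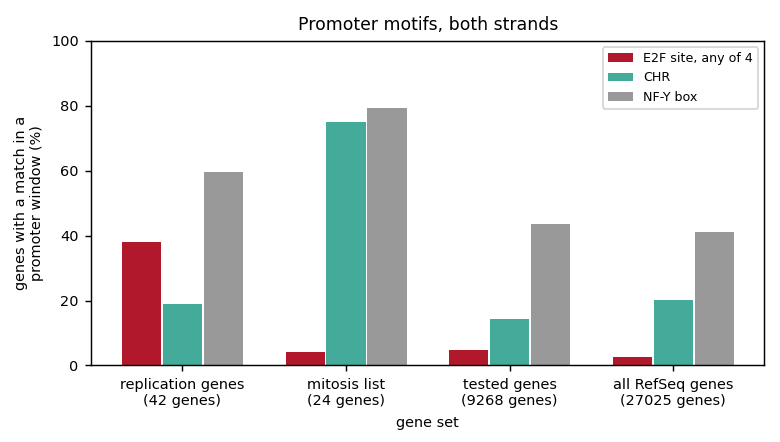
Share of genes with at least 1 match in a promoter window (%, bars from 0) for the E2F sites, the cell cycle homology region element (CHR) and the NF-Y box, in the replication genes, the mitosis list, all tested genes and all genes of the RefSeq promoter table. E2F sites stood at 38.1% in the replication genes and 4.17% in the mitosis list, and the CHR at 19.0% and 75.0%.

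With phillyrin 27 of the 51 replication genes were lower and 2 were higher than with OGD/R alone, 52.9% and 3.92% of the list (adjusted p under 0.05 in edgeR's quasi-likelihood test), and 22 did not pass. Over all 11658 tested genes 15.6% were called lower and 16.0% higher. The median log2 fold change of the members was -0.24, and that of all tested genes -0.01. The changes ran from -0.95 for Chaf1b to 0.48 for Dbf4, and 39 of the 51 estimates were below 0. In 28 members every phillyrin library lay below every OGD/R library (21.6% of all tested genes), in 3 every phillyrin library lay above (21.5%), and in 20 the groups overlapped. Together the members took 0.256%, 0.257% and 0.260% of the counts with phillyrin, against 0.315%, 0.314% and 0.313% with OGD/R alone. Mitochondrially encoded genes took 3.49%, 3.59% and 4.27% of the counts with phillyrin, against 3.18%, 3.30% and 3.27% with OGD/R alone. Without them 27 members were lower and 3 higher, beside 1786 and 1946 of all genes. The phillyrin libraries also differed more among themselves, by a chi-square per degree of freedom of 3.94 to 5.62 between pairs, against 2.06 to 2.60 between OGD/R pairs. In bulk RNA, fewer cells in S phase and less of these transcripts per cell cannot be told apart. Tested against a minimum fold in place of no change, Mcm6, Mcm4, Mcm2, Mcm3, Lig1 and Chaf1b stayed lower and Dbf4 higher. Scaled by library size only, 29 members were lower and 1 higher, beside 2455 and 1313 of all genes, where scaling by trimmed mean of M values (TMM), used throughout, gave 1823 and 1871.

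**Figure D2:**
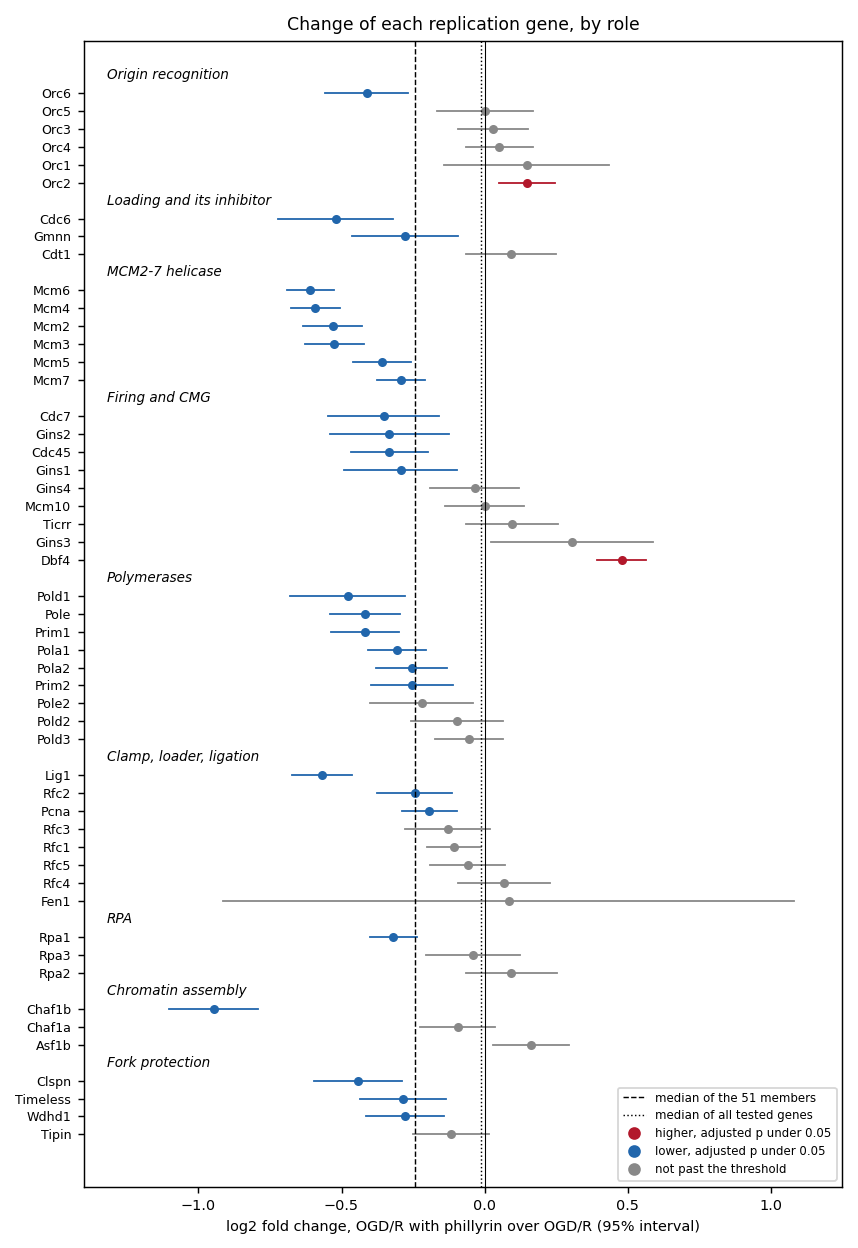
Log2 fold change of each of the 51 genes, OGD/R with phillyrin over OGD/R, with its 95% interval from the edgeR fit, grouped by role and coloured by call. The dashed line is the median of the members (-0.24) and the dotted line that of all tested genes (-0.01). All 6 MCM helicase genes lie left of 0, and Dbf4 lies farthest to the right.

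Of the origin recognition genes Orc6 fell, Orc2 rose and the other 4 did not pass the test. Orc6 (ENSMUSG00000031697, chromosome 8, 86026261 to 86034907, plus strand, coordinates of the deposited table, read as GRCm39) encodes the smallest subunit of the complex. It had 32.3, 28.0 and 29.6 CPM with phillyrin, against 37.3, 40.2 and 41.9 CPM with OGD/R alone, and every phillyrin library was below every OGD/R library (log2 fold change -0.41 ± 0.07 SE, adjusted p = 2.19e-05 by edgeR). Its exons overlap those of Vps35 on the other strand over 6.9% of their length in the GENCODE M21 annotation, and Vps35 was higher (log2 fold change 0.17). Orc2 had 97.1, 96.3 and 103 CPM with phillyrin, against 89.9, 90.2 and 86.8 CPM with OGD/R alone, a fold of 1.11 (95% interval 1.04 to 1.18, edgeR adjusted p = 0.0170). Its call was lost without phillyrin replicate 3 (edgeR adjusted p = 0.0534), without OGD/R replicate 3 (0.0923) and with scaling by library size only (0.0913). The gene Nif3l1 overlaps 29.8% of the exon bases of Orc2 on the other strand and was itself higher (log2 fold change 0.24, edgeR adjusted p = 0.000924), and reads of overlapping genes cannot be told apart without a strand setting. Orc5 had 25.2, 24.6 and 24.8 CPM with phillyrin, against 21.8, 27.4 and 25.2 CPM with OGD/R alone, and the phillyrin values lay inside the range of the OGD/R values. The folds of Orc1, Orc3, Orc4 and Orc5 had 95% intervals of 0.906 to 1.35, 0.937 to 1.11, 0.955 to 1.12 and 0.890 to 1.12. Orc1, the subunit that is degraded and remade in each cycle in human cells, was the least abundant of the 6 per length, at 2.26 ± 0.189 CPM per kilobase with phillyrin and 2.03 ± 0.340 with OGD/R alone (SD, n = 3 each), against 25.6 ± 0.908 CPM per kilobase with phillyrin and 23.1 ± 0.486 with OGD/R alone for Orc2.

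Of the loading factors Cdc6 and Gmnn fell and Cdt1 did not pass. Cdc6 (ENSMUSG00000017499, chromosome 11, 98798627 to 98814766, plus strand), the ATPase that closes the ring of the origin recognition complex around DNA, had 12.8, 11.7 and 12.0 CPM with phillyrin, against 17.5, 18.1 and 16.8 CPM with OGD/R alone. It fell by 30.3%, and the groups did not overlap (log2 fold change -0.52 ± 0.10 SE, adjusted p = 7.34e-05 by edgeR). Gmnn, which encodes geminin, stood at 16.0 ± 1.01 CPM with phillyrin and 19.3 ± 0.758 CPM with OGD/R alone (SD, n = 3 each; edgeR adjusted p = 0.0184), and its call was lost without phillyrin replicate 2 (edgeR adjusted p = 0.113) or OGD/R replicate 2 (0.0917). Cdt1, the loader that geminin inhibits, had 29.0, 29.1 and 25.6 CPM with phillyrin, against 27.8, 25.3 and 25.7 CPM with OGD/R alone, with a fold of 1.07 (95% interval 0.956 to 1.19), and the groups overlapped. The ratio of Cdt1 to Gmnn per length was 0.825, 0.913 and 0.712 with phillyrin, against 0.689, 0.585 and 0.634 with OGD/R alone. All 3 ratios with phillyrin were above all 3 with OGD/R alone, and no test was made of them.

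All 6 MCM helicase genes fell, the only role in which every member did. Mcm6 (ENSMUSG00000026355, chromosome 1, 128259327 to 128287401, minus strand) had 163, 175 and 182 CPM with phillyrin, against 267, 260.4 and 266 CPM with OGD/R alone, and fell by 34.4% (log2 fold change -0.61 ± 0.04 SE, adjusted p = 7.14e-15 by edgeR). Mcm4 (ENSMUSG00000022673, chromosome 16, 15441761 to 15455264, minus strand) had 101, 101 and 106 CPM with phillyrin, against 159, 154 and 152 CPM with OGD/R alone, and fell by 33.7% (log2 fold change -0.59, SE 0.04). In both genes the groups lay far apart compared with the spread inside them. MCM4, MCM6 and MCM7 form the core of the helicase ring that can unwind DNA on its own in the test tube. Mcm7, at 140.0, 149 and 149 CPM with phillyrin, against 178, 184 and 175 CPM with OGD/R alone, had the smallest estimate of the 6, -0.29 on the log2 scale (SE 0.04, edgeR adjusted p = 4.64e-07). Its exons overlap Ap4m1 on the other strand over 7.3% of their length and Cops6 over 1.4%, and neither of those genes passed the test. Mcm2, whose product also carries histones at the fork, had 84.9, 100.2 and 90.2 CPM with phillyrin, against 139.6, 131 and 128 CPM with OGD/R alone. Mcm3 had 81.1, 87.2 and 97.8 CPM with phillyrin, against 127, 127 and 128 CPM with OGD/R alone, and the OGD/R values spanned less than 1 CPM. Mcm5, which with MCM2 forms the gate of the ring, had 86.1, 100.2 and 95.9 CPM with phillyrin, against 119.8, 117 and 125 CPM with OGD/R alone. For Mcm2, Mcm3 and Mcm5 the log2 fold changes were -0.53, -0.53 and -0.36 (SE 0.05 each), and in each of the 3 the lowest value was that of phillyrin replicate 1.

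Per length, the 6 MCM genes summed to 150.1, 162 and 165 with phillyrin, against 226, 222 and 223 with OGD/R alone (CPM per kilobase). The same sum over the 6 origin recognition genes was 67.9, 63.8 and 65.1 with phillyrin, against 65.2, 67.0 and 66.5 with OGD/R alone, and these values overlapped. The ratio of the MCM sum to the origin recognition sum was 2.21, 2.54 and 2.54 with phillyrin, against 3.46, 3.32 and 3.35 with OGD/R alone. The ring holds 1 copy of each subunit, and within the helicase the levels per deposited length were unequal. Their order depends on those lengths. Before division by length, Mcm2 stood at 91.8 CPM with phillyrin and 133 CPM with OGD/R alone. Mcm3 stood at 88.7 and 127 CPM, and Mcm5 at 94.0 and 121 CPM. Per length Mcm6 was highest, at 37.2 ± 2.14 CPM per kilobase with phillyrin and 56.7 ± 0.762 with OGD/R alone (SD, n = 3 each), and Mcm2 lowest, at 13.2 ± 1.12 CPM per kilobase with phillyrin and 19.1 ± 0.845 with OGD/R alone. The ratio of the highest to the lowest was 2.86, 2.61 and 3.01 with phillyrin, against 2.85, 2.96 and 3.09 with OGD/R alone, and the groups overlapped in it. With phillyrin Mcm7 ranked second, at 33.0 CPM per kilobase, ahead of Mcm4 at 28.7; with OGD/R alone Mcm4 stood at 43.2 and Mcm7 at 40.5. In each group the 3 values of these neighbours did not overlap. Mcm3 and Mcm5 overlapped with phillyrin, at means of 23.6 and 23.6 CPM per kilobase, and not with OGD/R alone, at 33.9 and 30.2.

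**Figure D3:**
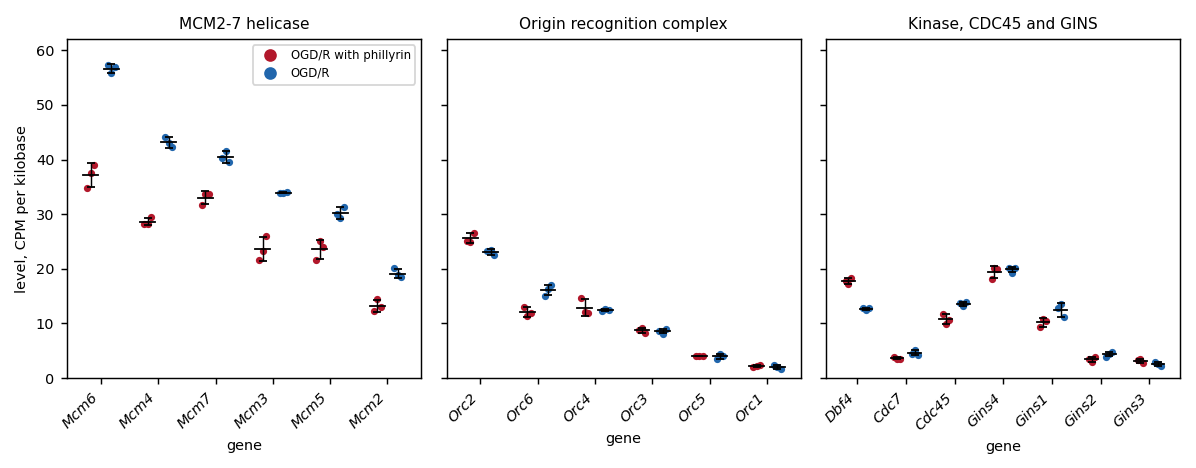
Level per length (CPM per kilobase) of the MCM helicase, origin recognition, and kinase, CDC45 and GINS genes in each library (points), with the mean and SD of 3 libraries (bars); phillyrin is left of OGD/R for each gene. Mcm6 averaged 37.2 CPM per kilobase with phillyrin and 56.7 with OGD/R alone, and Dbf4 and Orc2 are the genes whose phillyrin points all lie above the OGD/R points.

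Among the firing genes Dbf4 rose and Cdc7, Cdc45, Gins1 and Gins2 fell, while 4 did not pass. Dbf4 (ENSMUSG00000002297, chromosome 5, 8446973 to 8472716, minus strand), which activates the kinase CDC7, had 155, 150.3 and 159 CPM with phillyrin, against 112, 109 and 112 CPM with OGD/R alone. It rose by 39.4%, with every phillyrin library above every OGD/R library (log2 fold change 0.48 ± 0.04 SE, adjusted p = 1.60e-11 by edgeR). Its partner Cdc7 had 15.9, 14.7 and 15.0 CPM with phillyrin, against 18.4, 21.6 and 17.9 CPM with OGD/R alone, lower in all 3 phillyrin libraries (log2 fold change -0.35 ± 0.10 SE, adjusted p = 0.00408 by edgeR), and without OGD/R replicate 2 the log2 fold change was -0.26 and the adjusted p 0.0689 by edgeR. The ratio of Dbf4 to Cdc7 per length was 4.68, 4.90 and 5.11 with phillyrin, against 2.90, 2.42 and 2.99 with OGD/R alone. That the groups did not overlap in it follows from the values of Dbf4 and Cdc7 above, and no test was made of it. Cdc45, which joins the helicase at firing, had 41.0, 35.0 and 37.6 CPM with phillyrin, against 48.0, 46.1 and 48.6 CPM with OGD/R alone, lower in every phillyrin library (log2 fold change -0.33 ± 0.07 SE, adjusted p = 0.000147 by edgeR).

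The 4 GINS genes, whose products bind the helicase as a complex with 1 copy of each, split into Gins1 and Gins2, which fell, and Gins3 and Gins4, which did not pass the test, and the differences between them were not tested. Gins1 stood at 15.5 ± 1.19 CPM with phillyrin and 19.0 ± 1.94 CPM with OGD/R alone and Gins2 at 14.3 ± 1.87 CPM with phillyrin and 17.8 ± 1.53 CPM with OGD/R alone (SD, n = 3 each), with edgeR adjusted p = 0.0187 and 0.0119. Gins1 lost its call when OGD/R replicate 1 was left out (adjusted p = 0.0608 by edgeR), and likewise for OGD/R replicate 2 (0.140) and phillyrin replicate 1 (0.104). Gins2 lost its call when OGD/R replicate 3 (0.0815) or phillyrin replicate 2 (0.138) was left out. Gse1 overlaps 67.3% of the exon bases of Gins2 on the other strand, so the reads of Gins2 are uncertain. Gins3 had a fold of 1.24 (95% interval 1.01 to 1.504, edgeR adjusted p = 0.0946) and passed only without phillyrin replicate 3 (edgeR adjusted p = 0.0352). Gins4 had a fold of 0.976 (95% interval 0.876 to 1.09). Per length Gins4 was the most abundant, at 19.4 ± 1.13 CPM per kilobase with phillyrin and 19.9 ± 0.525 with OGD/R alone, and Gins3 the least, at 3.16 ± 0.400 CPM per kilobase with phillyrin and 2.58 ± 0.379 with OGD/R alone (SD, n = 3 each). Mcm10, which helps the activated helicase to start moving, had 40.1, 44.5 and 44.3 CPM with phillyrin, against 41.2, 47.6 and 40.1 CPM with OGD/R alone, with a 95% interval of the fold of 0.908 to 1.101. Ticrr, which encodes treslin, a factor that recruits CDC45, had a fold of 1.07 (95% interval 0.955 to 1.19).

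Polymerase and primase genes were lower in 6 of 9 cases, and all 9 estimates were below 0. Prim1 (ENSMUSG00000025395, chromosome 10, 127851037 to 127865906, plus strand), the catalytic primase subunit that lays down RNA primers, had 50.3, 47.0 and 54.1 CPM with phillyrin, against 66.6, 67.3 and 67.3 CPM with OGD/R alone, and fell by 25.1% (log2 fold change -0.42 ± 0.06 SE, adjusted p = 5.69e-07 by edgeR). Pola1, the catalytic subunit of polymerase alpha that extends those primers, had 72.7, 72.1 and 73.3 CPM with phillyrin, against 90.1, 89.8 and 89.6 CPM with OGD/R alone. Each group spanned under 2 CPM, and the groups were well apart. Its partner Pola2 had 45.8, 51.4 and 46.6 CPM with phillyrin, against 59.0, 54.3 and 59.0 CPM with OGD/R alone (log2 fold change -0.26, edgeR adjusted p = 0.00135). Prim2, the large primase subunit, changed by -0.25 on the log2 scale (SE 0.07, adjusted p = 0.00521 by edgeR), its groups overlapped, and its call was lost without phillyrin replicate 2 (edgeR adjusted p = 0.0797).

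Pole (ENSMUSG00000007080, chromosome 5, 110434172 to 110485340, plus strand), the catalytic subunit of the leading strand polymerase epsilon, had 55.2, 47.9 and 48.8 CPM with phillyrin, against 66.6, 70.9 and 65.0 CPM with OGD/R alone. It fell by 25.1% (edgeR adjusted p = 9.80e-07). Its partner subunit gene Pole2 was short of the threshold, at a fold of 0.859 (95% interval 0.758 to 0.972, edgeR adjusted p = 0.0540), and passed with limma-voom (adjusted p = 0.0457), with library size scaling (edgeR adjusted p = 0.0226) and without phillyrin replicate 1 (0.0282). Pold1, the catalytic subunit of polymerase delta, which copies the lagging strand, had 15.9, 15.4 and 12.7 CPM with phillyrin, against 18.4, 20.5 and 22.8 CPM with OGD/R alone, and phillyrin replicate 3 was lowest. Its log2 fold change was -0.48 (SE 0.10, edgeR adjusted p = 0.000249). The accessory subunit genes of the same enzyme did not pass: Pold3 had 52.2, 50.9 and 55.5 CPM with phillyrin, against 56.8, 53.1 and 54.7 CPM with OGD/R alone, with a 95% interval of the fold of 0.886 to 1.05, and Pold2 had an interval of 0.836 to 1.05. Per length the catalytic subunit was the lowest of the 3, at 3.02 ± 0.362 CPM per kilobase with phillyrin and 4.23 ± 0.448 with OGD/R alone, against 14.9 ± 1.75 CPM per kilobase with phillyrin and 16.0 ± 0.986 with OGD/R alone for Pold2 (SD, n = 3 each).

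**Figure D4:**
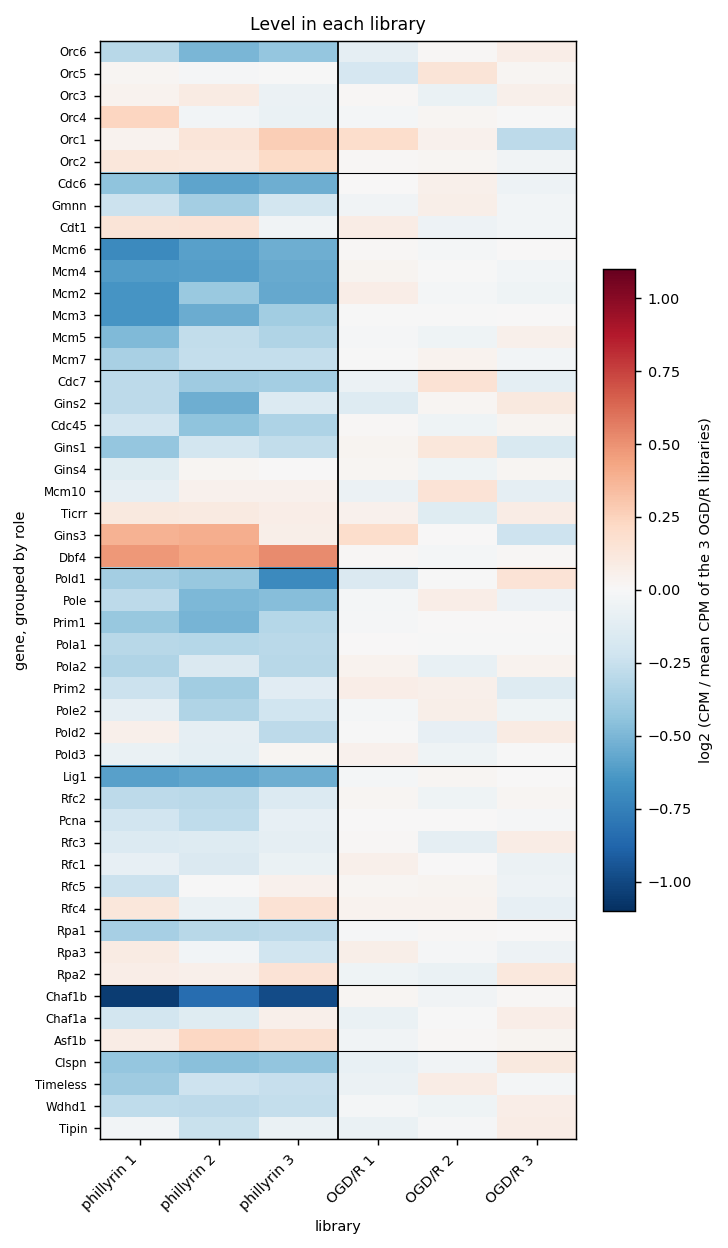
Level of 50 of the genes in each library as log2 of its CPM over the mean CPM of the 3 OGD/R libraries, with the 3 phillyrin libraries left of the 3 OGD/R libraries and genes grouped by role; Fen1 is left out because of its few reads. The MCM helicase, Chaf1b and Lig1 rows are blue in all 3 phillyrin libraries, and the Dbf4 row is red in all 3.

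Of the clamp, clamp loader and joining genes Lig1, Pcna and Rfc2 fell, and the other 5 did not pass. Lig1 (ENSMUSG00000056394, chromosome 7, 13011239 to 13045350, plus strand), the ligase that seals Okazaki fragments, had 59.1, 60.3 and 61.6 CPM with phillyrin, against 88.0, 90.6 and 89.6 CPM with OGD/R alone. The 6 values left a wide gap between the groups, and the gene fell by 32.5% (log2 fold change -0.57 ± 0.05 SE, adjusted p = 3.61e-11 by edgeR). Pcna, the sliding clamp that holds polymerases on DNA, had 99.6, 95.0 and 108 CPM with phillyrin, against 116, 116 and 114 CPM with OGD/R alone, and fell by 12.6% (edgeR adjusted p = 0.00172). Mouse Pcna has 2 annotated processed pseudogenes, and since the handling of reads with several matches is not given in the sources used here, which copy gave its reads is uncertain. The clamp is loaded by replication factor C, whose shared subunits are encoded by Rfc2 to Rfc5 and whose large subunit is encoded by Rfc1. Rfc2 had 37.0, 37.0 and 40.9 CPM with phillyrin, against 46.1, 43.8 and 45.9 CPM with OGD/R alone (log2 fold change -0.24 ± 0.06 SE, adjusted p = 0.00337 by edgeR), and Lat2, which overlaps 15.1% of its exon bases on the other strand, was under 1 CPM in both group means. Rfc1, Rfc3, Rfc4 and Rfc5 had folds of 0.928, 0.915, 1.05 and 0.960. Rfc1 passed with library size scaling (edgeR adjusted p = 0.0104) and without phillyrin replicate 3 (0.0485). Eif4a2 and Wsb2 overlap 12.7% and 10.7% of the exon bases of Rfc4 and Rfc5 on the other strand.

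Fen1, the flap nuclease that trims Okazaki fragments before ligation, had almost no reads: 13, 7 and 8 reads with phillyrin, against 9, 8 and 12 with OGD/R alone. Its level of 0.225 ± 0.0911 CPM per kilobase with phillyrin and 0.207 ± 0.0510 with OGD/R alone (SD, n = 3 each) was the lowest of the 51, and the 95% interval of its fold, 0.531 to 2.12, was too wide to show a change of the size seen in Lig1. In GENCODE M21 the antisense gene Gm10143 covers 78.8% of the exon bases of Fen1 and Tmem258 covers 5.4%, both on the other strand. The part of this overlap in the count was not tested.

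In RPA, which coats single-stranded DNA at the fork, only the large subunit gene Rpa1 passed the test. Rpa1 (ENSMUSG00000000751, chromosome 11, 75188992 to 75239150, minus strand) had 127, 132 and 134 CPM with phillyrin, against 161, 164 and 164 CPM with OGD/R alone, lower in every phillyrin library (log2 fold change -0.32 ± 0.04 SE, adjusted p = 8.06e-08 by edgeR). Rpa3 had 28.8, 26.5 and 23.1 CPM with phillyrin, against 28.2, 26.7 and 26.0 CPM with OGD/R alone, overlapping values with a 95% interval of the fold of 0.868 to 1.09, and Rpa2 had an interval of 0.956 to 1.19.

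Chaf1b had the largest change of the 51. It encodes the middle subunit of chromatin assembly factor 1, which places new histones on copied DNA. Chaf1b (ENSMUSG00000022945, chromosome 16, 93680789 to 93703003, plus strand) had 17.8, 20.5 and 18.6 CPM with phillyrin, against 37.4, 35.8 and 37.2 CPM with OGD/R alone, a fold of 0.519 (95% interval 0.466 to 0.578; log2 fold change -0.95 ± 0.08 SE, adjusted p = 2.24e-12 by edgeR). The highest phillyrin value was far below the lowest OGD/R value. Chaf1a, the large subunit of the same factor, had 48.1, 50.5 and 57.8 CPM with phillyrin, against 52.7, 55.2 and 58.5 CPM with OGD/R alone, with overlapping groups and a fold of 0.936 (95% interval 0.856 to 1.02), and passed only without phillyrin replicate 3 (adjusted p = 0.0481 by edgeR). Ubxn6 overlaps 52.5% of the exon bases of Chaf1a on the other strand, at mean levels of 4.99 CPM with phillyrin and 4.39 CPM with OGD/R alone. The ratio of Chaf1b to Chaf1a per length was 0.701, 0.769 and 0.608 with phillyrin, against 1.341, 1.22 and 1.201 with OGD/R alone, and the groups did not overlap. Which of the 2 genes was the more abundant is uncertain in either group, given the Ubxn6 overlap and the missing counting settings. Asf1b, a chaperone that hands histones to the factor, was higher in all 3 phillyrin libraries, at 41.7 ± 2.11 CPM with phillyrin and 37.3 ± 0.829 CPM with OGD/R alone (SD, n = 3 each), but missed the threshold (edgeR adjusted p = 0.0542). It passed with RLE factors (edgeR adjusted p = 0.0442), without mitochondrially encoded genes (0.0475) and without phillyrin replicate 1 (0.0203).

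Fork protection genes fell in 3 of 4 cases. Clspn (ENSMUSG00000042489, chromosome 4, 126450728 to 126487696, plus strand), which encodes claspin, the mediator that links stalled forks to the checkpoint kinase CHK1, had 24.4, 23.8 and 24.3 CPM with phillyrin, against 31.0, 32.0 and 35.5 CPM with OGD/R alone. The phillyrin values spanned less than 1 CPM, and the gene fell by 26.5% (log2 fold change -0.44 ± 0.08 SE, adjusted p = 1.57e-05 by edgeR). Timeless, which with TIPIN travels with the fork and steadies it, had 25.3, 28.3 and 27.9 CPM with phillyrin, against 31.7, 35.1 and 32.6 CPM with OGD/R alone (edgeR adjusted p = 0.00276). Wdhd1, which tethers polymerase alpha to the helicase, had 32.1, 32.0 and 32.6 CPM with phillyrin, against 38.4, 37.7 and 41.1 CPM with OGD/R alone (edgeR adjusted p = 0.00154). In both, every phillyrin library was below every OGD/R library. Tipin had 47.6, 40.9 and 46.1 CPM with phillyrin, against 46.0, 48.1 and 51.4 CPM with OGD/R alone, overlapping values with a 95% interval of the fold of 0.841 to 1.01. Per length Tipin stood above Timeless in both groups, at 24.0 ± 1.88 CPM per kilobase with phillyrin and 26.0 ± 1.46 with OGD/R alone, against 4.45 ± 0.265 CPM per kilobase with phillyrin and 5.42 ± 0.287 with OGD/R alone (SD, n = 3 each).

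Exons of 20 of the 51 members overlap another gene in GENCODE M21, 14 of them a gene that is in the deposited table. These include Lig1, overlapped by Zswim9 over 5.8% of its exon bases, and Cdc45, overlapped by Ufd1 over 6.0%. Both partners lie on the other strand, and neither passed the test. Of the 31 members with no such overlap 17 were lower and 1, Dbf4, was higher, with a median log2 fold change of -0.25. Over all tested genes, with or without such an overlap, 15.6% were lower and 16.0% higher.

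Of 35 other genes that act in replication 8 were lower (22.9%), 6 higher (17.1%) and 21 did not pass, shares near the 15.6% and 16.0% of all tested genes, with a median log2 fold change of -0.01. Dscc1, of an alternative clamp loader, stood at 5.48 ± 1.13 CPM with phillyrin and 11.5 ± 0.656 CPM with OGD/R alone (SD, n = 3 each; log2 fold change -1.10 ± 0.14 SE, adjusted p = 7.55e-08 by edgeR). Uhrf1, which recruits the maintenance DNA methyltransferase to copied DNA, stood at 88.2 ± 3.08 CPM with phillyrin and 129 ± 2.07 CPM with OGD/R alone (SD, n = 3 each). Top1, the topoisomerase that relieves twist ahead of the fork, was higher, at 285 ± 8.44 CPM with phillyrin and 231 ± 5.86 CPM with OGD/R alone (SD, n = 3 each; log2 fold change 0.30, edgeR adjusted p = 4.24e-08). The other 5 that rose were Kmt5a, a histone methyltransferase, Pole3, a small subunit of polymerase epsilon, Mcm8, Topbp1 and Rnaseh2c, with log2 fold changes of 0.18, 0.23, 0.38, 0.14 and 0.27. Kat5 overlaps 24.8% of the exon bases of Rnaseh2c on the other strand. Without phillyrin replicate 1, 3 of the 35 were higher. Top1 was among the genes with the smallest p of this list, and no difference between it and the fork genes was tested.

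Of 10 genes that supply deoxynucleotides 4 were lower (40%) and 0 higher, with a median log2 fold change of -0.13. Over all tested genes 15.6% were lower and 16.0% higher. Those that fell included Tk1, Tyms and Dut, at -0.70, -0.39 and -0.17, whereas Rrm1 and Rrm2, of ribonucleotide reductase, were at 0.08 and 0.02 and did not pass. All 28 genes of a mitosis list were higher, with a median of 0.47 and a range of 0.17 to 0.95, and the highest member of the replication list, Dbf4, was close to that median. The 3 with the smallest p-values were Nusap1, Ccnb1 and Ube2c, at 0.95, 0.77 and 0.80. Oip5 overlaps Nusap1 on the other strand over 4.2% of its exon bases, and Tnnc2 overlaps Ube2c over 22.8%. The replication genes and the mitosis genes thus lay on opposite sides of 0 by their medians in the same libraries, and the difference between the lists was not tested.

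**Figure D5:**
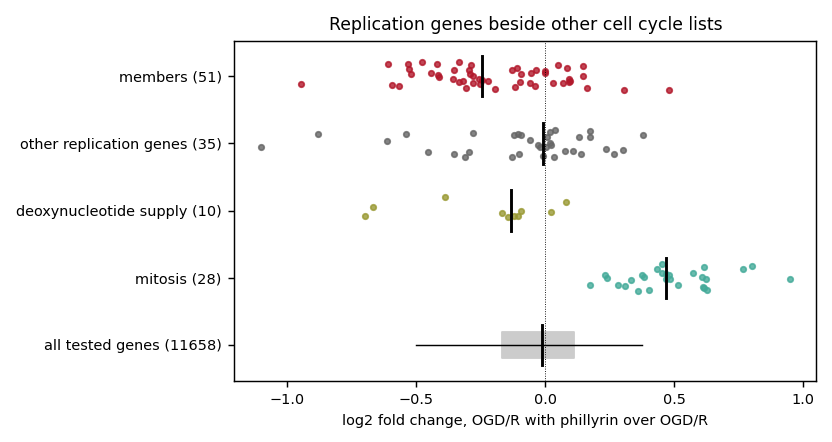
Log2 fold change (OGD/R with phillyrin over OGD/R) of each gene (points, with vertical scatter for display) in the replication genes and 3 other lists, with the median of each as a black bar; for all 11658 tested genes the grey box spans the middle 50% and the line the middle 90%. Medians were -0.24 for the replication genes, -0.01 for other replication genes, -0.13 for deoxynucleotide supply and 0.47 for mitosis.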

How the data were processed

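The read counts were deposited by the authors as 1 whole number per gene and library, not normalized. The tools were, per the submitters' processing notes, DESeq2 1.34.0, featureCounts 2.0.3, HISAT2 2.2.1 and Trimmomatic 0.39, and the build was GRCm39. The sources used here give neither the annotation release nor the strand and multi-mapping settings. The FPKM columns deposited by the authors follow from count, gene length and library total, and served only as an alternative for levels per length. Columns were matched by sample title, since 1 column name stands in the description of every phillyrin library.

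Genes were filtered with filterByExpr, scaled with TMM factors and fitted with a quasi-likelihood model in edgeR (edgeR 4.0.16, limma 3.58.1, R 4.3.3), two-sided, with no covariate. Benjamini-Hochberg adjustment ran over all 11658 tested genes, with a threshold of 0.05, and fold changes are phillyrin over OGD/R. An exact permutation of 3 against 3 libraries cannot reach a two-sided p below 0.1, so the calls depend on the variance edgeR pools over genes, a biological coefficient of variation of 4.05%. CPM values used TMM-scaled library sizes, and levels between genes were compared per kilobase of the deposited gene length. For Mcm7 and Cdc45 this length, 4426 and 3506 bases, equals all annotated exon bases of the gene in GENCODE M21. It may therefore exceed the length of the transcripts present, and ranks between genes depend on it. The members, the other lists and the roles were chosen with earlier results of these data known. Values in every library are given for the 24 members with the smallest p and for the members with the smallest and largest p of each role. From the other lists the 3 genes with the smallest p were named, with every gene of the other replication list that rose, and Rrm1, Rrm2, Dut and overlapping partners after their values were seen. The values of 1 gene of the deoxynucleotide list are not reported here. No table columns were left unused for want of a sample, and libraries of a group differed by more than counting noise. Alternatives were DESeq2 1.42.0, limma-voom, scaling by RLE factors or by library size, testing without the low-count filter or above a mean of 1 CPM, omission of single libraries, a block for the replicate number, the removal of mitochondrially encoded genes and a minimum-fold test (glmTreat) against a fold of 1.25.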

Additional observations from a re-analysis of the deposited data

How the results depend on the processing

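The members called lower numbered between 24 and 29 when each library was left out in turn, beside 1412 to 1668 of all genes. They numbered 27 to 29 under the other alternatives, beside 1471 to 2455 of all genes, except in the test against a minimum fold. That test called 6 lower and 1 higher, beside 173 and 142 of all genes. The members called higher numbered 1 with scaling by library size only, beside 1313 of all genes. Without single libraries they numbered 1 to 3 (1 without OGD/R replicate 3), beside 1434 to 1899 of all genes. The other replication genes called higher numbered 3 to 9 without single libraries (3 without phillyrin replicate 1). The median log2 fold change of the members stayed between -0.29 and -0.18. Of the 27 members called lower, 22 kept their call under all 14 alternatives that test against no change, and no member changed sign past the threshold. Deviations from the group means correlated at 0.00278, 0.00561 and 0.00322 for equal replicate numbers, and at -0.00459 to 0.00126 for unequal numbers. All these values were small, those for equal numbers were the highest, and whether the numbers pair the libraries is not settled by them. With the replicate number as a block 27 members and 1842 of all genes were lower and 2 members and 1867 genes higher, and no count of calls moved materially. The few reads of Fen1 leave its fold uncertain, and why they were few was not tested.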
